A study of Mus musculus with 8 samples.

Results

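The pyruvate dehydrogenase complex, its kinases and its phosphatases were followed through 10 genes in mouse quadriceps muscle. The genes were chosen by name, with earlier results of these data known. They were Pdha1, Pdhb, Dlat and Pdhx for the complex, Pdk1 to Pdk4 for the kinases, and Pdp1 and Pdp2 for the phosphatases. All probe sets that the array annotation pairs with exactly 1 of these symbols were taken, which gave 18 of the 45101 probe sets on the array, and 17 of them passed the filter on dim signals. The arrays are Affymetrix whole-genome mouse arrays, on which a probe set of short oligonucleotides reads a stretch of a transcript, usually toward its 3' end. Total RNA came from the quadriceps of adult male C57Bl/10 mice. The 4 control arrays came from mice held in room conditions for 2 weeks. The 4 hypoxia arrays came from mice housed in a sealed chamber. Its oxygen was lowered from 21% to 8% over 1 week and then held at 8% for another 7 days. No genetic change is named for either group. Only the hypoxia mice are described as held in the chamber, so low oxygen and the chamber cannot be told apart. Separate animals within a group are not stated in the labels, so p-values here measure the spread among samples, which may be technical.

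The pyruvate dehydrogenase complex sits in the mitochondrial matrix and turns pyruvate, the end product of glycolysis, into acetyl-CoA for the tricarboxylic acid cycle. Its E1 enzyme decarboxylates pyruvate, its E2 enzyme passes the acetyl group to coenzyme A by way of lipoyl arms, and its E3 enzyme reoxidises those arms. Pyruvate dehydrogenase kinases phosphorylate E1 and switch the complex off, and pyruvate dehydrogenase phosphatases remove the phosphate and switch it on. In skeletal muscle this switch sets the balance between carbohydrate and fat oxidation, and Pdk1 is known as a target of hypoxia-inducible factors in cultured cells. Transcript levels, which were measured here, do not report the phosphorylation state.

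After hypoxia the signals of Pdha1, Dlat, Pdhx and Pdp1 were lower on every one of their probe sets, by 1.50-fold to 4.67-fold. Pdk1 was the gene with a higher call, 2.16-fold on the probe set that was brightest over all arrays. In control its brightest probe set was another, 1435836_at (mean 1321 against 884), and that one was lower. Pdk2, Pdk3, Pdk4 and Pdp2 did not pass the test, and Pdhb passed on its dim probe set but not on its bright one. Of the 17 tested probe sets, 10 were lower and 2 higher at an adjusted p of 0.05 (limma with Benjamini-Hochberg adjustment over 27022 probe sets). Over all tested probe sets 16.4% were called lower and 12.5% higher, 28.8% together, against 70.6% of the tested member probe sets. The median log2 change was -0.78 over these 17 and -0.04 over all tested probe sets. Several of the 17 read the same gene and are not independent. With 1 probe set per gene, the brightest over all arrays, 4 of the 10 genes were lower and 1, Pdk1, higher. Of all 13257 genes 18.8% were lower and 14.8% higher (33.6% in either direction), and the member median was -0.18. The choice of probe set used the hypoxia values too. By control values alone 1435836_at, called lower, would stand for Pdk1. A change is hypoxia minus control on the log2 scale after adding 16 to the signal, which understates changes of dim probe sets, and n is 4 arrays per group throughout.

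**Figure D1:**
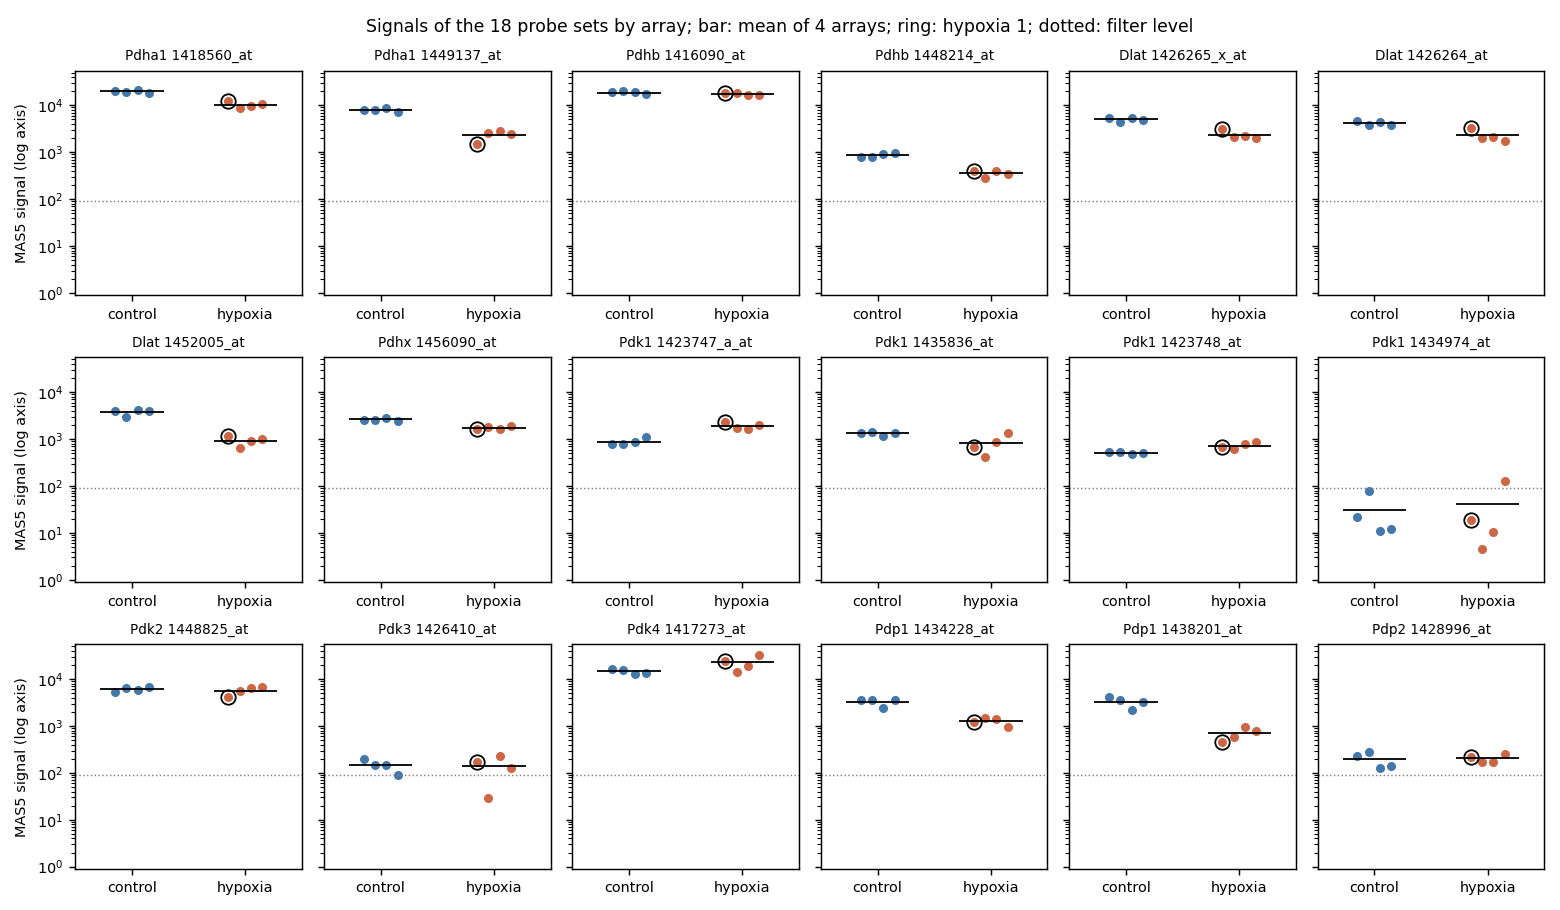
MAS5 signal on a log axis for each of the 18 probe sets, with 4 control and 4 hypoxia arrays as points, the group mean as a bar, hypoxia 1 ringed and the filter level dotted. Both probe sets of Pdha1 and of Pdp1 and all 3 of Dlat separate the groups downward, and Pdk1 separates them upward on 1423747_a_at and 1423748_at, while Pdk1 1434974_at lies mostly below the filter.

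The bases just before an annotated start are shown for 4 genes, the subunit genes Pdha1 and Dlat, which fell on all their probe sets, and the kinase genes Pdk1 and Pdk4. The sequences are RefSeq's on GRCm38.p6, which listed 9 of the 10 genes, and each is the 250 bases before the start, written 5' to 3' on the gene's strand. Capitals mark the core of the hypoxia response element, searched as ACGTG or GCGTG on both strands, so that CACGT and CACGC are the same cores read from the other strand, and overlapping matches were each counted. Pdha1 lies on the minus strand at chrX:160138431-160138680, Dlat on the minus strand at chr9:50659781-50660030, Pdk1 on the plus strand at chr2:71872974-71873223 and Pdk4 on the minus strand at chr6:5496279-5496528.
Pdha1: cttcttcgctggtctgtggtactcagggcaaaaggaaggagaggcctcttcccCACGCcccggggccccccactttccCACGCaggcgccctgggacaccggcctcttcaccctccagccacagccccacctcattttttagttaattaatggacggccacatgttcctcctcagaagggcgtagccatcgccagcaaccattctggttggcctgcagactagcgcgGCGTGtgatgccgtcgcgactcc
Dlat: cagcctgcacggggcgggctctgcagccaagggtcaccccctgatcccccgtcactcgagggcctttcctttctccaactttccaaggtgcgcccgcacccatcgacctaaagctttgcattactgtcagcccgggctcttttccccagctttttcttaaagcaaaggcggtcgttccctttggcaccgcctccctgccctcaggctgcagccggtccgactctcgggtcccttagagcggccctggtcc
Pdk1: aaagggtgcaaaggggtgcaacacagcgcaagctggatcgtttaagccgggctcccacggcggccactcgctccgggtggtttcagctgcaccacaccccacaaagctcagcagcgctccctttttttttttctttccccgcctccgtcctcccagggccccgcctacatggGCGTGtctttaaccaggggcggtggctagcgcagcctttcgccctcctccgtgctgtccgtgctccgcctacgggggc
Pdk4: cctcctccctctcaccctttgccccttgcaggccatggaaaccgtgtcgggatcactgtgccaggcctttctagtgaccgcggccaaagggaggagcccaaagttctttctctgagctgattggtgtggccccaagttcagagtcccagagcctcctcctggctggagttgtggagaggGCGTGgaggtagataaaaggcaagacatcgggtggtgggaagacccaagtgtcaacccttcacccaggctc
The core occurred 3 times before Pdha1, 0 times before Dlat, 1 time before the Pdk1 start shown and 1 time before Pdk4. Another listed start of Pdk1, at chr2:71874654-71874903, had 0. Dlat was the only listed member gene without the core at any start. The core occurred in 8 of the 11 listed member promoters and in 38.6% of all 32851 promoters of the same length. Pdk1, the gene with a higher call, held the letters. Of the subunit genes shown, both with lower calls, Pdha1 held them and Dlat did not. A match is a description of the sequence and not a binding site, and these arrays hold no binding data. The half-site AAGGTCA of estrogen-related receptors and the FoxO site GTAAACA, both searched on both strands, had 0 matches before these 4 genes and occurred in 4.1% and 3.2% of all promoters.

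The E1 enzyme is built from alpha chains, encoded by Pdha1, which carry the serines that the kinases phosphorylate, and beta chains, encoded by Pdhb. The brighter Pdha1 probe set, 1418560_at, gave signals of 20553, 19116, 21665 and 18289 on control arrays 1 to 4 and of 12125, 8828, 9451 and 10724 on hypoxia arrays 1 to 4. Every hypoxia value lay below every control value, and the change was -0.96 ± 0.14 (SE, adjusted p = 0.000251, limma). The other Pdha1 probe set, 1449137_at, went from 8001, 7908, 8753 and 7128 to 1524, 2629, 2823 and 2425. Here too the groups were apart, and hypoxia 1, the highest hypoxia array on the brighter probe set, was the lowest. Its change was -1.78 ± 0.19 (adjusted p = 2.3e-05, limma), which leaves 29.6% of the control mean, against 51.7% on the brighter probe set.

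The E1 beta gene Pdhb gave unlike readings. Its bright probe set, 1416090_at, read 19013, 19867, 18981 and 17048 in control and 18340, 18048, 16328 and 16612 in hypoxia. The groups overlapped, and the change of -0.11 did not pass (95% interval from -0.37 to 0.15, adjusted p = 0.536, limma). The dim probe set, 1448214_at, read 787, 799, 899 and 966 in control and 399, 283, 393 and 346 in hypoxia, with no overlap. That change was -1.25 ± 0.17 (adjusted p = 0.000175, limma). Whether Pdhb transcript changed is therefore uncertain.

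Dlat encodes E2, the lipoyl-bearing acetyltransferase that forms the core of the complex, and it fell on 3 of 3 probe sets. On 1426265_x_at, whose suffix marks probes that can also bind other transcripts, control read 5438, 4486, 5405 and 4830 and hypoxia 3083, 2162, 2186 and 2019 (change -1.10 ± 0.16, adjusted p = 0.000256, limma). On 1426264_at control read 4599, 3734, 4401 and 3888 and hypoxia 3228, 1999, 2147 and 1744 (change -0.90 ± 0.18, adjusted p = 0.00305, limma). On 1452005_at control read 3888, 2993, 4262 and 4016 and hypoxia 1167, 655, 901 and 1009 (change -2.02 ± 0.19, adjusted p = 1.06e-05, limma). The groups were apart on all 3, and hypoxia 1 was the highest hypoxia array on each, closest to control on 1426264_at. The third probe set of Dlat showed a 4.06-fold fall, where the first showed 2.15-fold.

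Pdhx encodes the E3-binding protein, which docks E3 to the E2 core, and it had 1 probe set. Control read 2604, 2564, 2845 and 2470 and hypoxia 1629, 1788, 1680 and 1867. The hypoxia values were close together and all below control. The change of -0.59 ± 0.13 (adjusted p = 0.0048, limma) was the smallest fall among the called subunit probe sets. Of the 8 subunit probe sets 7 were lower, with a median of -1.03.

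**Figure D2:**
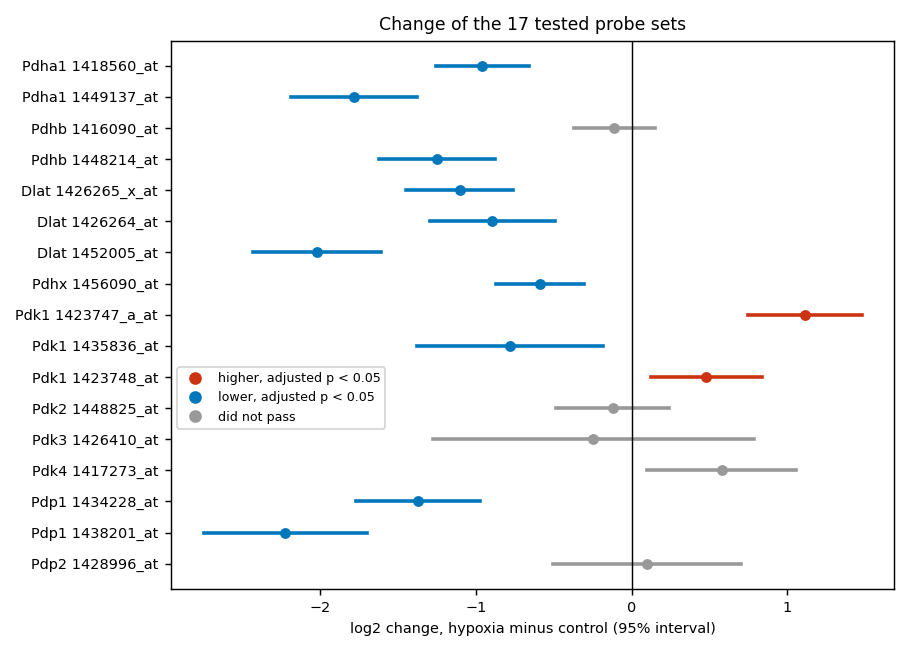
Log2 change of hypoxia minus control for the 17 tested probe sets, as points with 95% intervals, coloured by call. The subunit and Pdp1 probe sets lie left of 0, Pdp1 1438201_at farthest at -2.22, and the 3 tested Pdk1 probe sets lie on both sides of 0.

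Pdk1 was read by 4 probe sets. On the brightest over all arrays, 1423747_a_at, control read 805, 772, 872 and 1088 and hypoxia 2327, 1742, 1649 and 2003. All hypoxia arrays were above all control arrays, and the change was 1.11 ± 0.17 (adjusted p = 0.00036, limma). On 1423748_at control read 539, 541, 480 and 502 and hypoxia 682, 602, 787 and 850, again with no overlap and with a smaller change of 0.48 ± 0.16 (adjusted p = 0.0444, limma).

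The third Pdk1 probe set, 1435836_at, moved the other way, from 1359, 1422, 1161 and 1342 to 691, 416, 876 and 1318. The groups overlapped, since hypoxia 4 stood among the control arrays and hypoxia 2 far below them. Its change was -0.78 ± 0.27 (adjusted p = 0.0498, limma). The fourth, 1434974_at, read 4.5 to 129 and was not tested. Both weaker calls sat at the threshold. The call of 1423748_at was lost without any 1 of 6 arrays, namely control 1 to 4 and hypoxia 3 and 4 (adjusted p up to 0.115, limma). It was also lost with the replicate number as a block (adjusted p = 0.0931, limma), without the filter and without the intensity trend. It held in 9 of 18 alternatives. The call of 1435836_at was lost without any 1 of 7 arrays, all but hypoxia 4 (adjusted p up to 0.125, limma). It was also lost with the block (adjusted p = 0.0517, limma) and after quantile normalization (adjusted p = 0.0648, limma). Median centring, pseudocount 1, no filter and no intensity trend lost it too, and it held in 5 of 18 alternatives. The call of 1423747_a_at held in all 19 alternatives, between 1.02 and 1.21. The direction of Pdk1 is uncertain over its probe sets, with the higher reading on the firmest of them.

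The other kinases did not pass. Pdk2, a widely expressed kinase of muscle, read 5221, 6373, 5856 and 6779 in control and 4120, 5459, 6322 and 6631 in hypoxia, with 3 hypoxia arrays inside the control range and hypoxia 1 below it. Its change was -0.12 (95% interval from -0.48 to 0.24, adjusted p = 0.639, limma), and 0.021 without hypoxia 1. Pdk3 was dim, at 201, 146, 146 and 89.5 in control and 173, 28.9, 231 and 129 in hypoxia, near the filter level of 90.2. Its interval, from -1.28 to 0.79 around -0.25, allows a change of more than 2-fold downward (adjusted p = 0.747, limma).

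Pdk4, the kinase that muscle is known to induce in fasting and in states of high fat use, gave bright and scattered signals. Control read 16782, 15658, 12713 and 13345, and hypoxia read 24172, 14293, 19232 and 33315. Hypoxia 1, 3 and 4 were above every control array and hypoxia 2 lay within the control range, so that the SD was 8114 in hypoxia and 1916 in control. The change of 0.58 ± 0.22 (95% interval from 0.10 to 1.06) did not pass after adjustment over all probe sets (adjusted p = 0.0695, limma). Single arrays decided its size: without hypoxia 2 it was 0.78 and passed (adjusted p = 0.0155, limma), and without hypoxia 4 it was 0.37 and did not (adjusted p = 0.189, limma). Of the 6 tested kinase probe sets, 2 were higher and 1 was lower, all of Pdk1.

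Pdp1 encodes the catalytic subunit of the calcium-stimulated phosphatase of muscle. On 1434228_at control read 3503, 3659, 2441 and 3531 and hypoxia 1191, 1498, 1391 and 962. On 1438201_at control read 4091, 3505, 2192 and 3284 and hypoxia 454, 593, 933 and 798. Both separated the groups, although control 3 was the lowest control array on each. The changes were -1.37 ± 0.18 (adjusted p = 0.000149, limma) and -2.22 ± 0.24 (adjusted p = 3.15e-05, limma), the latter a 4.67-fold fall. Pdp2, the other catalytic phosphatase, known to respond to insulin, read 233, 275, 129 and 144 in control and 223, 170, 167 and 256 in hypoxia. The groups overlapped, and its change of 0.10 (95% interval from -0.50 to 0.70) did not pass (adjusted p = 0.83, limma).

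Without regard to the test, the groups did not overlap for 11 of the 17 tested probe sets, 9 lower and 2 higher, where 30.1% of all tested probe sets did not overlap (17.0% lower, 13.1% higher). The Pdk1 probe set 1435836_at was the one called without such a separation. Among all tested changes, those of Pdp1 1438201_at and Dlat 1452005_at lay at percentiles 1.26 and 1.62, and that of Pdk1 1423747_a_at at percentile 95.4. Bulk RNA was measured, so fewer fibres and less transcript per fibre cannot be told apart.

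Probe sets of the same gene changed unequally. For each of 7 pairs, the brightest probe set of a gene against another of its tested ones, the within-array log2 difference was compared between the groups. The exact two-sided permutation test over the 8 arrays can give no p below 0.0286, and 6 of 7 pairs reached it (adjusted p = 0.0333 over the 7 pairs, exact permutation). The ratio of Pdha1 1418560_at to 1449137_at was 2.42 to 2.57 on the control arrays, 7.95 on hypoxia 1 and 3.35 to 4.42 on hypoxia 2 to 4. For Pdhb the ratio of 1416090_at to 1448214_at rose from a range of 17.7 to 24.9 to one of 41.6 to 63.8. For Dlat the ratio of 1426265_x_at to 1452005_at went from 1.20 to 1.50 in control to 2.00 to 3.30 in hypoxia, and that to 1426264_at from 1.18 to 1.24 down to 0.955 to 1.16. For Pdk1 the ratio of 1423747_a_at to 1435836_at went from 0.543 to 0.810 up to 1.52 to 4.19, the widest difference at 1.89 on the log2 scale. For Pdp1 the ratio of 1434228_at to 1438201_at went from 0.856 to 1.11 up to 1.21 to 2.63. The pair that did not pass was Pdk1 1423747_a_at against 1423748_at (p = 0.0571, exact permutation). For Pdha1, Dlat and Pdp1 the size of the fall therefore depends on the probe set. For Pdhb whether a fall was called depends on it too. Where each probe set lies along its transcript was not analysed here.

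Both RNA quality controls were highest on hypoxia 1. For Gapdh the 3' to 5' ratio of control signals, a measure that goes up with broken RNA, was 0.776 to 0.807 in control, 3.44 in hypoxia 1 and 0.801 to 0.874 in hypoxia 2 to 4. That of beta-actin was 1.09 to 1.25 in control, 2.53 in hypoxia 1 and 1.40 to 1.59 in hypoxia 2 to 4, higher on every hypoxia array than on any control array. Hypoxia 1 also had the highest ratio for Pdha1, Pdp1 and the Pdk1 pair that did not pass, and the lowest for Dlat 1426265_x_at to 1426264_at, each the way the hypoxia group moved, while hypoxia 2 was farthest from control in the other 3 pairs. The part of RNA quality in the differences was not tested. Without hypoxia 1 the member counts were 9 lower and 2 higher, Pdk1 1435836_at being the one lost. Without it Pdha1 changed by -1.04 and -1.59, Dlat by -1.24, -1.08 and -2.14, Pdp1 by -1.35 and -2.04, Pdhx by -0.55 and Pdk1 1423747_a_at by 1.02.

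**Figure D3:**
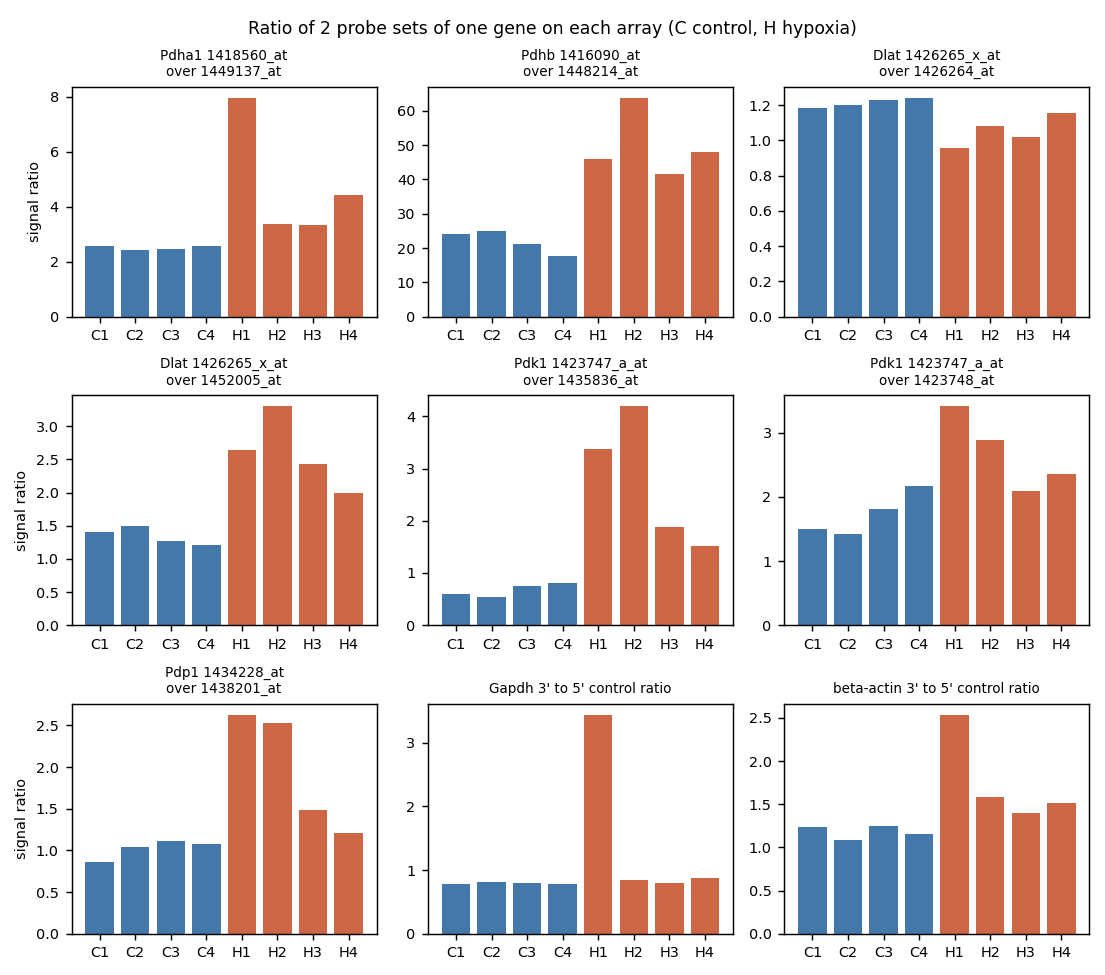
Ratio of signals of 2 probe sets of the same gene on each of the 8 arrays (C control, H hypoxia), for the 7 pairs and for the Gapdh and beta-actin controls. The bars start at 0; the Pdha1 ratio is 7.95 on hypoxia 1 and at least 3.35 on the other hypoxia arrays, against at most 2.57 in control.

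Depth does not apply to arrays, and their number limits the precision. Every array had been scaled to a common mean (2% trimmed mean 500), array medians were 128 to 165, and no 2 arrays held the same values. Fibre markers were bright in all samples, with summed signals of 463922 to 563177 in control and 254850 to 357256 in hypoxia, and 9 of 12 fell, Tnnt3 by 0.44 on the log2 scale, though 4 fell after quantile normalization, 5 after median centring and 4 without the filter. Fibroblast markers summed to 55377 to 63455 in control and 14809 to 19813 in hypoxia, and 8 of 8 fell, Dcn by 1.02. Adipocyte markers went from 29351 to 61874 down to 17481 to 26746 and 4 of 4 tested fell (2 without hypoxia 2), Fabp4 by 0.58. Neutrophil markers went from 445 to 1001 up to 3197 to 5954 and 3 of 5 rose, S100a8 by 3.25. Of the macrophage markers Cd68, singled out after its values were seen, rose by 3.93 and Lyz2 changed by -0.62 without passing. In that list 2 of 9 fell, 5 without hypoxia 3 and 4 with the replicate block, and their sums were 12351 to 18337 and 10372 to 19460. Of the endothelial ones 1 of 8 fell, 3 without hypoxia 1 and 2 without control 4 or hypoxia 4 (5541 to 9312 and 4120 to 7629). Of the nerve and Schwann cell markers 1 of 5 fell, 0 without any 1 of control 1 to 3 and hypoxia 2 and 3, and 2 without hypoxia 4 (6690 to 9379 and 4721 to 7365), and of the blood markers 0 of 4 passed (997 to 2803 and 1154 to 2574). The brightest markers of these last 3 lists, Vwf, Pmp22 and Alas2, changed by -0.09, -0.51 and 0.17, of which that of Pmp22 passed. No signal of any probe set was 0. The part of these cell types in the members' changes was not tested.

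The remaining genes of the pathway were taken from lists of 63 symbols, of which 54 were tested, each by its brightest probe set, and 21 were lower and 7 higher. With 1 probe set per gene, 18.8% of all tested genes were lower and 14.8% higher, the background for the count of each list. That background came from a separate fit adjusted over 13257 genes, while the list calls were adjusted over 27022 probe sets. Dld, which encodes E3, read 7473 ± 428 in control and 5973 ± 486 in hypoxia (SD), and its change of -0.32 did not pass (adjusted p = 0.0709, limma). Pdpr, the regulatory subunit of the phosphatase, changed by -1.04 ± 0.17 (adjusted p = 0.000739, limma), and its other 2 tested probe sets gave -1.51 and -1.49. The testis form of E1 alpha, Pdha2, was below the filter. After quantile normalization both Dld and Pdpr were called lower, so the count of 1 of 2 became 2 of 2.

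Of 13 genes of pyruvate supply and its other fates, 8 fell and 2 rose (median -0.74). Ldha, the muscle lactate dehydrogenase chain, fell 3.93-fold from 43856 ± 3646 to 11147 ± 827 (adjusted p = 5.15e-07, limma), and Pkm, pyruvate kinase, fell 2.79-fold. Slc16a3, a lactate exporter, fell 2.88-fold, and Ldhd, a lactate dehydrogenase of the D form, fell 2.65-fold. The rises, named after their values were seen, were Slc16a1, a monocarboxylate transporter, at 0.59, and the dim malic enzyme Me2 at 1.48. The control mean of Me2, 85.5, lay under the filter level of 90.2, so it passed the filter by its hypoxia signals (mean 226.7). Without any 1 of 7 arrays, all but control 1, 0 or 1 rise was left. After quantile normalization, with pseudocount 1, with the 60% filter and without the intensity trend 1 was left, and without the filter 0. Mpc1, a subunit of the pyruvate carrier of the mitochondrial membrane, was singled out after its values were seen: it read 24160 ± 2620 and 23064 ± 2019 and did not pass (change -0.06, adjusted p = 0.76, limma).

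Of 10 tested genes that supply the lipoate and thiamine cofactors, 1 fell and 1 rose, with changes in both directions and a median of 0.05. Lipt2, which acts in lipoate attachment, changed by -1.17, and Iba57, an iron-sulfur assembly factor, by 0.58. Without hypoxia 1 the count that fell was 3, and after quantile normalization it was 3 with 2 higher. With median centring, the 60% filter or 1 probe set per gene 2 were higher as well, and with array weights 2 fell. The count that rose was 0 without control 3 or hypoxia 3 and with the replicate number as a block. Of 8 genes of the sister 2-oxoacid dehydrogenases, 3 fell and 1 rose (median 0.02). Bckdk, the kinase of the branched-chain complex, fell 3.55-fold, from 1987 ± 277 to 559.9 ± 155 (adjusted p = 3.74e-05, limma). Dlst, the E2 of the 2-oxoglutarate complex, changed by -0.75, though 2 dimmer Dlst probe sets gave 0.04 and 0.31 without passing, so that Dlst is uncertain. Ogdh, the E1 of the same complex, changed by -0.50, near the threshold (adjusted p = 0.0445, limma). Dhtkd1, an E1 of lysine breakdown, was dim and rose by 1.46, while the branched-chain subunit genes Bckdha, Bckdhb and Dbt, singled out after their values were seen, did not pass. The single rise became 0 with the 60% filter and 2 without hypoxia 3. In this list 2 fell with median centring, without the filter, without the intensity trend and with the replicate block. The same count was found without any 1 of the control arrays or of hypoxia 1, 2 and 4.

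Of 8 genes of acetyl-CoA use, 3 fell and 1 rose (median -0.27). Cs, citrate synthase, fell 2.23-fold from 25577 ± 1353 to 11937 ± 3972, and its other probe sets gave -1.22 and -1.85. Acat1, which interconverts acetyl-CoA and acetoacetyl-CoA, changed by -0.78, and the citrate carrier gene Slc25a1 by -1.10 (adjusted p = 0.0381 for Slc25a1, limma). The count that fell was 2 without the filter, without the intensity trend, and without any 1 of control 2, control 3, hypoxia 1 and hypoxia 4. After quantile normalization it was 4. Acss1, a mitochondrial acetyl-CoA synthetase, rose 3.35-fold on its brightest probe set, and another gave -0.28 without passing, so its rise is uncertain.

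Among 13 tested regulators known to act on Pdk genes, 5 fell and 2 rose (median -0.36). Ppargc1b, a coactivator, fell from 971 ± 196 to 104 ± 93.8 (adjusted p = 0.000174, limma). Its hypoxia signal was near the filter level of 90.2, so no fold is given. Rxrg, a retinoid X receptor, fell 3.51-fold. Esrra, an estrogen-related receptor that acts on Pdk4 and on mitochondrial genes, changed by -1.22 but has a second probe set at 0.20 that did not pass, so its fall is uncertain. Foxo1, which is known to act on Pdk4, rose by 0.88, and its other tested probe sets gave 0.97 and 1.09. Hif1a, singled out after its values were seen, changed by 0.02 on its brightest probe set without passing (adjusted p = 0.952, limma), and a dimmer probe set was called at -0.67. Its protein is known to be set mainly by oxygen-dependent breakdown, which arrays do not read.

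**Figure D4:**
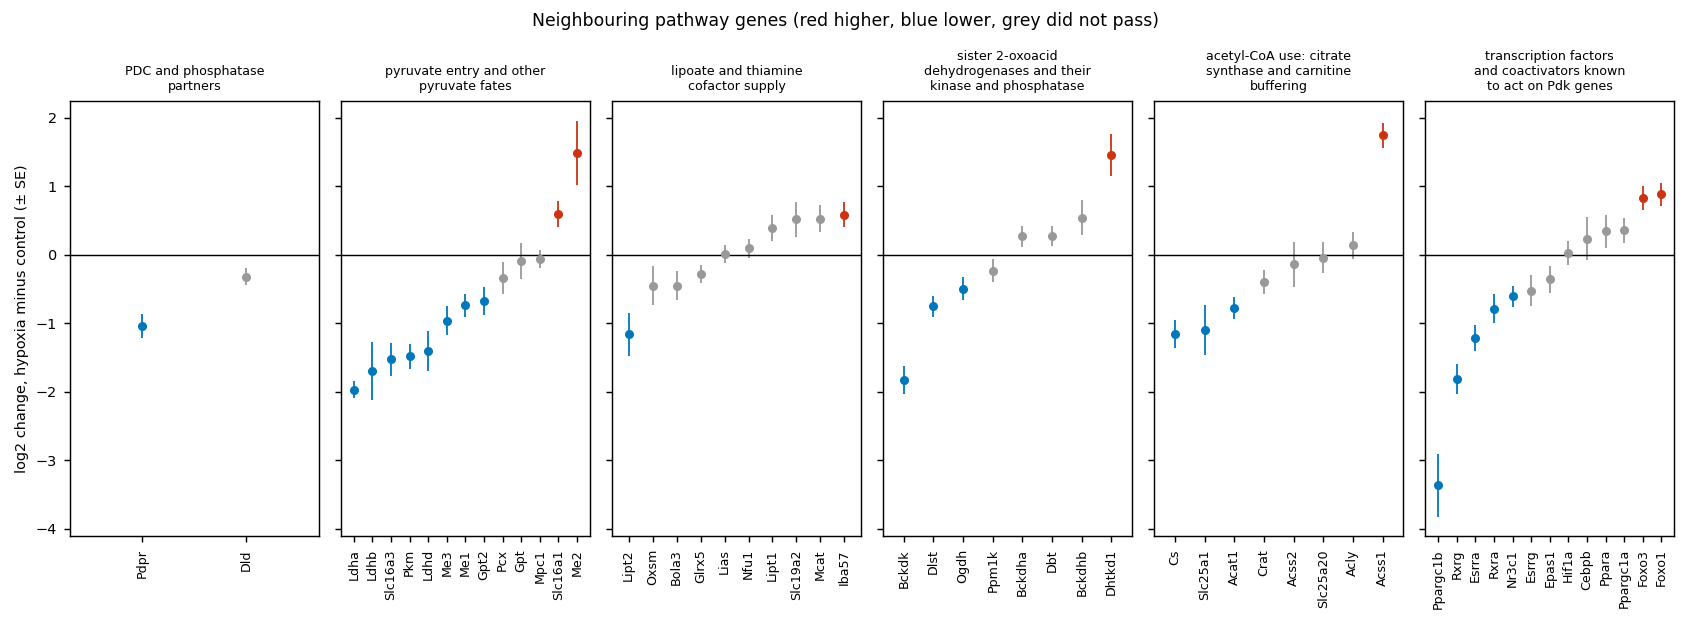
Log2 change ± SE of hypoxia minus control for the 54 tested genes of the 6 pathway lists, by the brightest probe set of each gene, red where higher and blue where lower. Ldha, Pkm, Bckdk and Pdpr lie below 0, while the cofactor genes lie on both sides of 0 and 8 of 10 did not pass.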

How the data were processed

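The deposited values are MAS5 signal intensities, not log-transformed, as the submitters' processing notes name MAS5. Sources used here give neither its version nor detection calls. Sample titles gave the group and number of each array, and the deposited scaling was kept. Control probe sets (64) were removed, then the dimmest 40% by mean log2 value. This left 27022 probe sets, and the filter corresponds to a signal of 90.2. Hypoxia and control were compared on log2(signal + 16) with limma 3.58.1 in R 4.3.3 (lmFit, eBayes with an intensity trend, two-sided) and Benjamini-Hochberg adjustment over all 27022 at 0.05. The procedure was tested on simulated data. The platform annotation gave 34958 probe sets exactly 1 symbol, and 99.4% of them matched GRCm38.p6 genes by identifier. Named genes are all members, up to 4 called genes per pathway list with the smallest p, Dld, Pdpr, the brightest gene of each marker list, and some said to be singled out. The members and lists were chosen with earlier results of these data known. The alternatives changed the normalization (quantile or median centring), the pseudocount (1 or 64), the filter (none or 60%), the probe sets per gene, the variance model (no trend, robust, array weights), a replicate block, or left out each array.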

Additional observations from a re-analysis of the deposited data

Results flagged for a closer look

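The Gapdh 3' to 5' ratio of hypoxia 1, 3.44, stood far from the other hypoxia arrays, as given above with the values obtained without that array. For Pdp1 1434228_at the signal of control 3, 2441 (2440.5 before rounding), stood far below the other control arrays, and without control 3 the change of that probe set was -1.51. These were 2 of 54 groups of 4 values examined, and chance alone gives about 1 in 20.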

How the results depend on the processing

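The number of member probe sets called higher was 1 instead of 2 without the filter, without the intensity trend, with 1 probe set per gene and with the replicate block, and 1 to 3 when single arrays were left out. The number called lower was 4 instead of 10 with 1 probe set per gene, where fewer probe sets enter, and 9 to 10 when single arrays were left out. Over all probe sets 3368 were higher and 4422 lower, 1959 and 2489 with 1 probe set per gene, and 2616 to 3379 and 3481 to 4699 when single arrays were left out. The replicate numbers did not pair the arrays: same-numbered arrays deviated from their group means with correlations of -0.07 to 0.01, and 0 of 8 arrays correlated best with its own number. With the replicate block 2952 probe sets were higher and 3930 lower. Sign changes were limited to uncalled probe sets with an array left out: Pdk2 at 0.021 without hypoxia 1 (range -0.21 to 0.021), Pdk3 at 0.27 without hypoxia 2 (range -0.55 to 0.27), and Pdp2 at -0.061, -0.014 and -0.010 without control 3, control 4 and hypoxia 4 (range -0.061 to 0.27). The calls of both Pdha1, all 3 Dlat, both Pdp1, Pdhx, Pdhb 1448214_at and Pdk1 1423747_a_at probe sets held in every alternative run that included them.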
